A study of Mus musculus with 18 samples.

Results

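The report covers 9 genes that mark astrocytes, Gfap, Aldh1l1, S100b, Slc1a2, Slc1a3, Aqp4, Gja1, Gjb6 and Aldoc, in the arcuate nucleus of female mice. They were taken by name as markers of the cell type, 9 of 23235 gene symbols in the tables, and all 9 were among the 14777 genes tested. The choice was made with earlier results of these data known. Expression was measured by RNA sequencing in 18 libraries, 3 in each of 6 groups. KIKO E2, KIKO oil, ERKO E2, ERKO oil, WT E2 and WT oil are the group names used here. ERKO stands for the label ERalpha KO, a knockout of the estrogen receptor that the gene Esr1 encodes. KIKO commonly denotes a receptor allele mutated so that it no longer binds estrogen response elements, carried with a null allele, and WT is wild type. All females were of the strain C57/BL and had their ovaries removed. E2 groups received estradiol benzoate, with a dose of 250 ng on day 5 after the surgery and one of 1500 ng on day 6, and oil groups received the vehicle on the same days. The microdissected tissue came from animals killed 24 h after the later dose, following 1 h without food. The labels give neither the construction of the alleles nor whether a library is 1 animal. The p-values weigh differences against the spread between libraries, which need not be the spread between animals.

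Astrocytes take up the glutamate that neurons release, move water and potassium through channels on their endfeet, and form a network joined by gap junctions. In rats, the astrocytes of the arcuate nucleus are known to change their shape and their content of glial fibrillary acidic protein with the estrous cycle and with gonadal steroids. Tanycytes, the radial glia-like cells that line the third ventricle beside the arcuate nucleus, also express some of these markers, and S100b is known from ependymal cells as well.

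All 9 genes were well expressed in every library, from 15.9 FPKM (Aldh1l1 in ERKO E2 2) to 906 FPKM (Aldoc in ERKO E2 3). FPKM divide the fragments of a gene by its transcript length and by the library's total, so that levels of different genes can be compared. The summed level of the 9 genes made up 0.282% to 0.372% of a library's total FPKM. Averaged over the 18 libraries, Aldoc stood highest at 641 FPKM, followed by Gfap at 192, Slc1a3 at 190, Slc1a2 at 126, S100b at 110, Gja1 at 102, Aqp4 at 38.2, Gjb6 at 36.3 and Aldh1l1 at 19.2 FPKM. Some neighbours in this order could not be separated: Gfap exceeded Slc1a3 in 8 of 18 libraries, S100b exceeded Gja1 in 11 and Aqp4 exceeded Gjb6 in 12. Slc1a2 exceeded S100b in 16 of 18, and each of the other 4 neighbouring pairs kept its order in 18 of 18. The confidence bounds that the authors deposited beside each value lay 1.06% to 7.58% from it. For each gene they were narrower than its coefficient of variation over the 18 libraries, but the spread within a single group could be narrower than the bounds.

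A single library, ERKO E2 3, stood apart from the rest before any gene was compared. Its correlation with the other libraries was 0.919 to 0.954, against 0.963 to 0.995 among the other 17. The total FPKM of ERKO E2 3 was 628541, against 418191 to 492135 in the others, and its summed level of markers of neighbouring hypothalamic nuclei was 20608 FPKM, against 1776 to 7310 elsewhere. That sum was not corrected for transcript length, with which the values of this library shifted, as described below. Esr1, the targeted gene, ranged from 2.85 to 3.89 FPKM in KIKO E2, 2.91 to 4.08 in KIKO oil, 0.212 to 2.34 in ERKO E2 and 1.62 to 2.39 in ERKO oil, against 3.45 to 5.88 in WT E2 and 5.38 to 11.9 in WT oil. Values without ERKO E2 3 are given for many of the results that rest on it, but not for all.

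**Figure D1:**
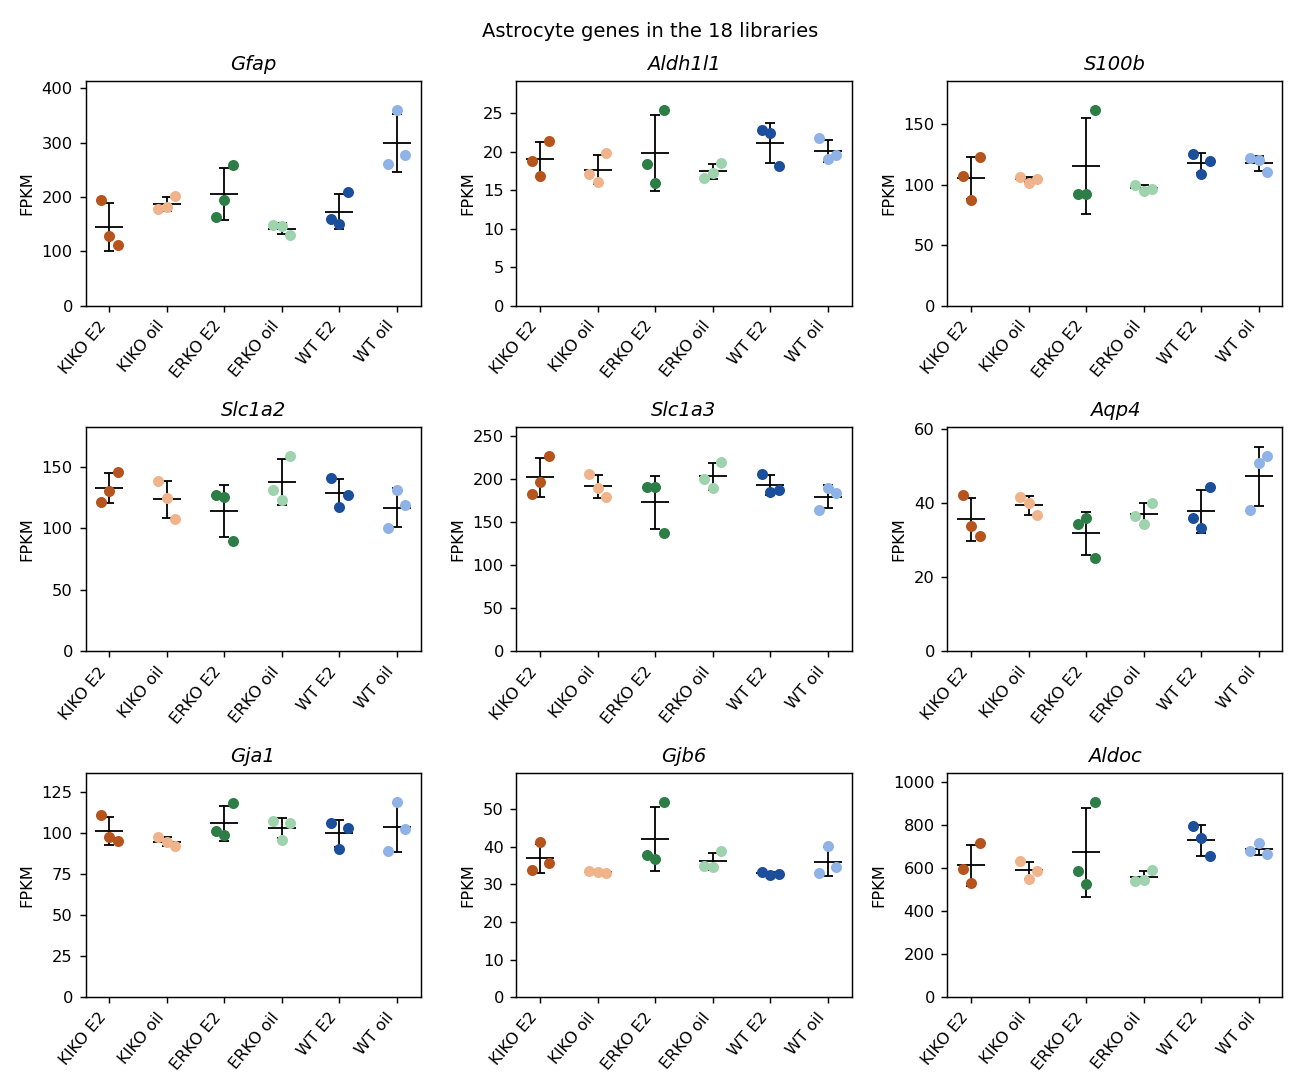
FPKM of each of the 9 astrocyte genes (y axis, from 0) in the 6 groups (x axis), with 1 point per library and bars for the mean ± SD of 3 libraries. Gfap spreads 3.22-fold between its lowest and highest library and is highest in WT oil, while Gja1 spreads 1.34-fold, and ERKO E2 3 gives the highest point of Aldh1l1, S100b, Gjb6 and Aldoc and the lowest point of Slc1a2, Slc1a3 and Aqp4.

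Gfap, which encodes the intermediate filament of the astrocyte cytoskeleton and lies on chromosome 11, was the member that varied most. Its coefficient of variation over the 18 libraries was 32.7%, against 8.54% to 17.4% for the other 8 genes. Gfap measured 194, 129 and 112 FPKM in KIKO E2 and 178, 182 and 201 FPKM in KIKO oil. In ERKO E2 it measured 164, 195 and 258 FPKM, and in ERKO oil 148, 147 and 129 FPKM. The WT E2 libraries held 159, 151 and 209 FPKM, and the WT oil libraries 261, 359 and 277 FPKM. Every WT oil library was above all 15 others, ERKO E2 3 being the nearest, and the 3 ERKO oil libraries formed the tightest low group.

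Under oil, Gfap was lower in both mutant genotypes than in WT, and the difference passed the test in ERKO. Gfap fell in ERKO oil, at 142 ± 10.5 FPKM, against 299 ± 52.7 FPKM in WT oil (SD, n = 3 each), without overlap. The log2 change was −1.06 ± 0.20 (SE; 95% interval −1.50 to −0.63; limma adjusted p = 0.0278, ranked 51 of 14777 genes by p). Of all genes tested, 0.683% passed in this direction, and 1.43% in either, and 1 of the 9 members passed. KIKO oil held 187 ± 12.4 FPKM, also below every WT oil library (log2 change −0.66 ± 0.20, interval −1.10 to −0.23, limma adjusted p = 0.266). Here 0.0135% of all genes passed, and none of the 9 members did. KIKO oil lay above ERKO oil in every library, with a log2 difference of 0.40 ± 0.20 (interval −0.04 to 0.83) that did not pass (limma adjusted p = 0.998), in a comparison where 0% of all genes passed and 340 had an unadjusted p under 0.05 by limma. In bulk tissue, fewer astrocytes and less Gfap RNA per astrocyte cannot be told apart.

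The Gfap difference between ERKO oil and WT oil kept its sign in 28 of 28 alternative fits and passed in 22. Many of these fits, such as those without a library of another group, leave the log2 change as it is. In them its sign could not change. The call was lost with the replicate number as a block (adjusted p = 0.0525) and without ERKO oil 1 (0.114), ERKO oil 2 (0.107), ERKO oil 3 (0.124), WT oil 1 (0.0561) or WT oil 2 (0.0927), all limma values. Among the fits without a library of ERKO oil or WT oil, only that without WT oil 3 passed. Without ERKO E2 3, which is in neither group but adds to the estimate of the spread, the same log2 change had an adjusted p of 0.00228 by limma.

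Gfap was lower after E2 than after oil in WT and higher in ERKO, and neither difference passed the test. For E2 against oil, 0 of the 9 members passed in each genotype, where limma called 0.785% of all genes in WT, 0.00677% in KIKO and 0% in ERKO, with 1068 genes of ERKO at an unadjusted p under 0.05. In WT, the E2 libraries averaged 173 ± 31.7 FPKM and the oil libraries 299 ± 52.7 FPKM (SD, n = 3 each), with no overlap. The log2 change was −0.79 ± 0.20 (interval −1.22 to −0.35, limma adjusted p = 0.0996). Without ERKO E2 3 in the fit its adjusted p by limma was 0.0237, with 2.69% of all genes called, and over 28 alternatives it ran from 0.0237 to 0.330, with 3 of them past the threshold. In ERKO, the E2 libraries averaged 206 ± 48.2 FPKM and the oil libraries 142 ± 10.5 FPKM, again with no overlap but with E2 above oil (log2 change 0.51 ± 0.20, limma adjusted p = 0.473). When ERKO E2 3 was left out, that log2 change was 0.34 (limma adjusted p = 1). In KIKO, the E2 libraries averaged 145 ± 43.5 FPKM and the oil libraries 187 ± 12.4 FPKM, with overlap (log2 change −0.40 ± 0.20, limma adjusted p = 1).

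The test of the difference between the responses did not pass for Gfap, or for the other 8 members, in any pair of genotypes. It passed for 0.135% of all genes between KIKO and WT, 0.277% between ERKO and WT and 0% between KIKO and ERKO, where 323 genes had an unadjusted p under 0.05 by limma. The E2 response of ERKO minus that of WT was 1.30 ± 0.29 on the log2 scale (interval 0.69 to 1.91, limma adjusted p = 0.0961). Over 28 alternatives the adjusted p ran from 0.0424 to 0.244, and it passed in 3, which were library weights (0.0424), the transcript length correction (0.0454) and the fit without KIKO E2 1 (0.0483). Leaving out ERKO E2 3 gave 1.12 (limma adjusted p = 0.0762). The response of KIKO minus that of WT was 0.38 ± 0.29 (interval −0.23 to 1.00, limma adjusted p = 0.999), and that of KIKO minus ERKO was −0.92 ± 0.29 (interval −1.53 to −0.30, limma adjusted p = 0.746). Without ERKO E2 3 the latter was −0.74 ± 0.26. The comparisons within a treatment and these differences share libraries, the WT oil group in particular. After E2, Gfap in KIKO and ERKO overlapped with WT, with log2 differences of −0.28 ± 0.20 and 0.24 ± 0.20 (limma adjusted p = 0.760 and 0.770). The difference of ERKO E2 from WT E2 was, without ERKO E2 3, 0.06 ± 0.20 (limma adjusted p = 0.881). In these comparisons 0.947% and 1.3% of all genes passed and none of the 9 members did. Between KIKO E2 and ERKO E2, 0.0135% of all genes passed and none of the 9, with Gfap at −0.52 ± 0.20 (limma adjusted p = 0.788), or −0.34 without ERKO E2 3 (limma adjusted p = 1).

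Set against the other 8 astrocyte genes in the same library, Gfap showed the same order. The geometric mean of the other 8 genes was nearly level, with group means between 86.6 and 93.6 FPKM. It averages over shifts in opposite directions. In ERKO oil against WT oil, the log2 changes of the 8 ran from −0.33 for Aqp4 to 0.23 for Slc1a2. None of them passed, while Aldoc, S100b and Aldh1l1 were lower without overlap. The ratio of Gfap to this mean was 1.62 ± 0.50 in KIKO E2, 2.16 ± 0.20 in KIKO oil, 2.30 ± 0.40 in ERKO E2 and 1.61 ± 0.21 in ERKO oil, against 1.87 ± 0.36 in WT E2 and 3.18 ± 0.36 in WT oil (SD, n = 3 each). The lowest WT oil ratio was 2.96 and the highest ratio of any other library was 2.70, in ERKO E2 3. The ratio was 1.89 in ERKO E2 1 and 2.33 in ERKO E2 2. The ratio carries no test of its own, since it was formed with the Gfap values known.

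**Figure D2:**
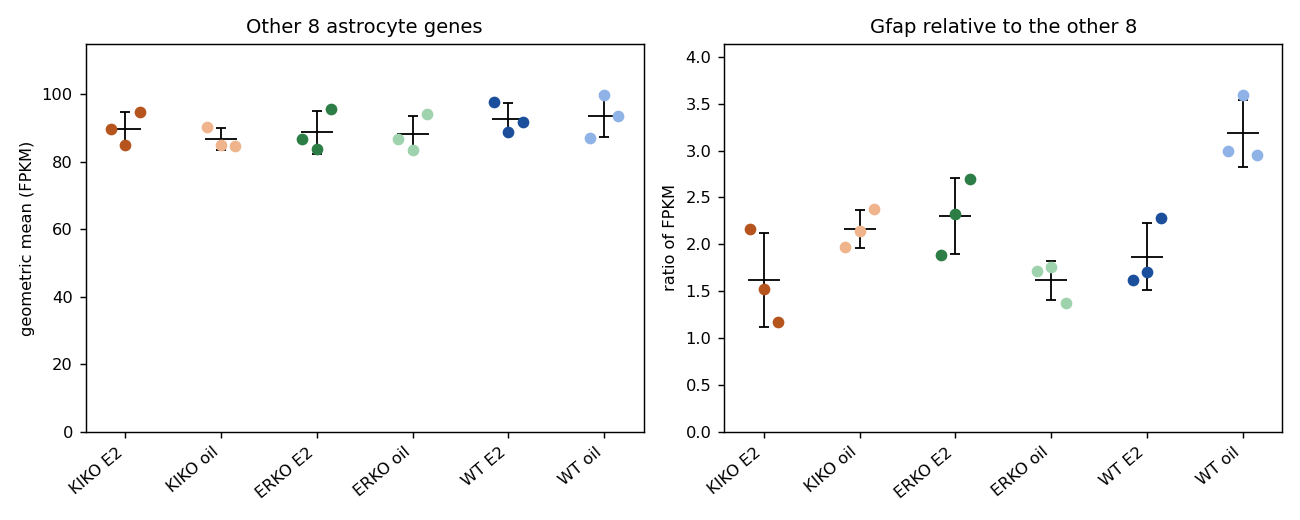
Left, geometric mean FPKM of the 8 astrocyte genes other than Gfap, and right, the ratio of Gfap to that mean, per library (points) with mean ± SD of 3 libraries (bars), both axes from 0. The left panel is nearly level between groups, and in the right panel the 3 WT oil libraries, at 2.96 to 3.60, lie above all others.

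In ERKO oil, some markers of other cell types lay below their WT oil level too. Of 7 markers of oligodendrocyte precursors, Gpr17, Olig1 and Olig2 fell and none rose, where 0.683% of all genes fell. Their log2 changes were −1.06 ± 0.14, −0.51 ± 0.12 and −0.53 ± 0.10 (limma adjusted p = 0.0105, 0.0473 and 0.0274). The summed level of the 7 was 113 to 115 FPKM in ERKO oil, 125 to 129 in KIKO oil and 132 to 153 in WT E2, against 153 to 182 in WT oil. Olig2, a transcription factor of the oligodendrocyte lineage, also fell after E2 in WT (log2 change −0.63 ± 0.10, limma adjusted p = 0.00339). The 8 oligodendrocyte markers summed to 1206 to 1392 FPKM in ERKO oil against 1456 to 1948 in WT oil, with 0 of 8 past the threshold. The 12 tanycyte markers summed to 299 to 333 FPKM in ERKO oil against 333 to 425 in WT oil, again with 0 of 12 past the threshold. Summed markers of arcuate neurons were 2768 to 2870 FPKM in ERKO oil and 4332 to 5122 in WT oil, while those of neurons in general were 1107 to 1182 FPKM in ERKO oil and 1114 to 1181 FPKM in WT oil. Neither list had a gene past the threshold. The summed markers of 3 further cell types overlapped, with 107 to 182 FPKM in ERKO oil and 150.2 to 162 FPKM in WT oil for microglia, 169 to 196 FPKM in ERKO oil and 157 to 238 FPKM in WT oil for ependymal cells, and 89.1 to 107 FPKM in ERKO oil and 82.5 to 138 FPKM in WT oil for endothelial cells and pericytes. Those of neighbouring hypothalamic nuclei were 1776 to 4322 FPKM in ERKO oil and 4469 to 7310 FPKM in WT oil, with 0 of 7 past the threshold. None of the markers named in these lists was at 0 in any library. Their part in the Gfap difference was not tested.

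The promoter window of Gfap is shown because Gfap is the member that differed, with that of Slc1a3, which moved opposite to Gfap across the libraries. Both are RefSeq sequences of the build GRCm38.p6, from 250 bases before to 50 after the annotated start, printed 5′ to 3′ on the gene's own strand. The Gfap window is chr11:102897151-102897450 and the Slc1a3 window chr15:8710758-8711057, both on the minus strand. Capitals mark matches to a single arm of the estrogen response element (GGTCA, or TGACC on the other strand) and to a STAT motif (TTCNNNGAA), both strands searched.
Gfap: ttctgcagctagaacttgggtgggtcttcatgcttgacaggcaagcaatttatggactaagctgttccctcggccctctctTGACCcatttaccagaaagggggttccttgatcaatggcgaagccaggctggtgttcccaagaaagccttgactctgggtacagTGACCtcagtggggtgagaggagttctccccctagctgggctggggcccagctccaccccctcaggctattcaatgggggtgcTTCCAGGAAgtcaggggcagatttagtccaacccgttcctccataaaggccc
Slc1a3: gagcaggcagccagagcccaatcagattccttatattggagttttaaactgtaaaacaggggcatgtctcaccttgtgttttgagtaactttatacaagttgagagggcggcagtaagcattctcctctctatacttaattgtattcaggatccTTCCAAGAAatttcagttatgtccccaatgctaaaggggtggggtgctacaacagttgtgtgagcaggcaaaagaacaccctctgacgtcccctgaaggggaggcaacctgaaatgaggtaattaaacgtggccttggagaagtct
Gfap held 2 such arms, 169 and 85 bases before the start, and 1 STAT match 2 bases before it. Slc1a3 held 1 STAT match and no arm. Among 32851 promoters of the same length, 40.5% held an arm and 8.30% a STAT match. The full estrogen response element, made of 2 facing arms with 3 bases between them, was in 0 of the 9 windows found for 8 members and in 0.0700% of all promoters. The AP-1 motif TGACTCA was in 5.20% of all promoters and, among the members, in Gja1 alone. Single arms stood also in Aldh1l1, which held 3, Slc1a2, which held 2, and Gja1 and Gjb6, which held 1 each. Aldoc held 2 STAT matches in 1 of its 2 windows, and S100b held none of the motifs. A match of letters is a description and not a site.

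The other 8 genes passed in none of the 14 comparisons, or 0 of 112 tests, with log2 differences from −0.42 to 0.38. By limma the smallest unadjusted p among them was 0.0150 (Gjb6) and 1 more, for Aqp4, was under 0.05. The smallest adjusted p was 0.170. Their intervals allowed larger differences, the lowest bound being −0.88 for the ERKO minus WT response of Slc1a2.

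**Figure D3:**
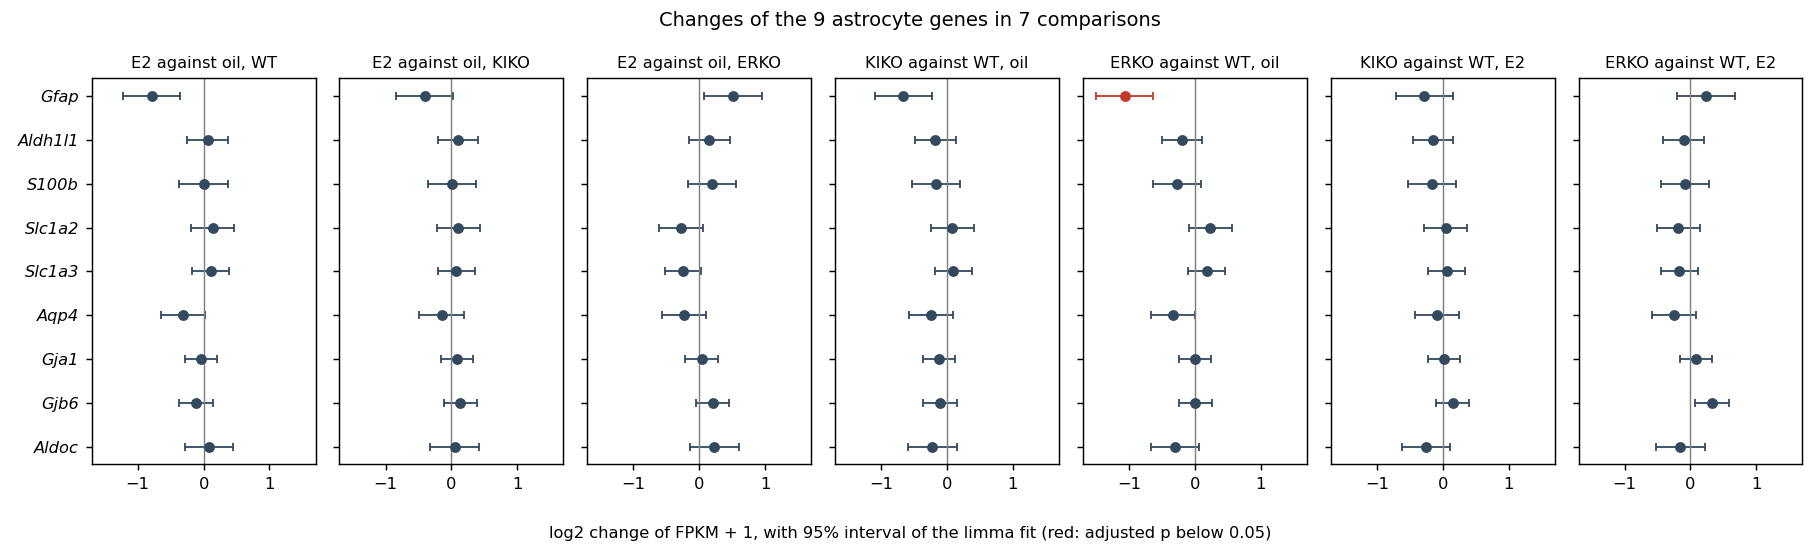
Log2 change of FPKM + 1 (x axis) with the 95% interval of the limma fit for the 9 astrocyte genes (rows) in 7 comparisons (panels, each with the group named first over the group named second). The single red point, Gfap in ERKO against WT under oil at −1.06, is the 1 value with adjusted p below 0.05.

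The glutamate transporters Slc1a2, on chromosome 2, and Slc1a3, on chromosome 15, clear glutamate from the extracellular space. Slc1a3 measured 182, 197 and 226 FPKM in KIKO E2 and 205, 189 and 179 in KIKO oil, 191, 190.1 and 137 in ERKO E2 and 199.8, 189 and 219.9 in ERKO oil, and 206, 185 and 187 in WT E2 and 164, 189.9 and 183 in WT oil. Slc1a2 measured 122, 130.4 and 146 FPKM in KIKO E2 and 138, 124 and 108 in KIKO oil, 127, 126 and 89.4 in ERKO E2 and 131, 123 and 159 in ERKO oil, and 140.5, 117 and 127 in WT E2 and 99.9, 131 and 119 in WT oil. All groups overlapped for both genes, and the lowest value of each was in ERKO E2 3. Under oil, where ERKO libraries held less Gfap than WT libraries, Slc1a2 and Slc1a3 were higher on the mean, with log2 changes of 0.23 ± 0.15 and 0.18 ± 0.13 (limma adjusted p = 0.383 and 0.433). In ERKO, E2 against oil gave −0.28 ± 0.15 for Slc1a2 and −0.24 ± 0.13 for Slc1a3 (limma adjusted p = 0.473 for both). Both values rest in part on ERKO E2 3, and without it they were −0.11 ± 0.13 and −0.09 ± 0.10 (limma adjusted p = 1 for both).

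Aqp4, on chromosome 18, encodes the water channel of astrocyte endfeet. It measured 42.2, 33.8 and 31.1 FPKM in KIKO E2 and 41.6, 40.1 and 36.7 in KIKO oil, 34.3, 36.0 and 25.2 in ERKO E2 and 36.7, 34.5 and 40.2 in ERKO oil, and 35.9, 33.3 and 44.4 in WT E2 and 38.2, 50.8 and 52.7 in WT oil. Of the 3 WT oil libraries, 2 gave the highest values, and the 3 WT oil libraries lay above the 3 of ERKO E2, whose highest was 36.0 FPKM. Within each genotype and within each treatment the groups overlapped. Aqp4 in ERKO averaged over both treatments was lower than in WT by a log2 difference of −0.29 ± 0.11 (interval −0.53 to −0.05, limma adjusted p = 0.170). Without ERKO E2 3 that difference was −0.21 ± 0.10 (limma adjusted p = 0.114). With all 18 libraries, it was −0.33 ± 0.16 under oil alone (limma adjusted p = 0.239), and E2 against oil in WT gave −0.31 ± 0.16 (limma adjusted p = 0.539). With a correction for transcript length, Aqp4 was −0.44 in ERKO oil against WT oil (limma adjusted p = 0.0440), and with libraries weighted by their quality −0.43 (0.0190). Over the 28 alternatives that adjusted p ran from 0.0190 to 0.446.

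The gap junction genes Gja1 and Gjb6, on chromosomes 10 and 14, encode the connexins that couple astrocytes. Gja1 was the steadiest member, between 89.2 FPKM (WT oil 1) and 119 FPKM (WT oil 2), and its log2 differences stayed between −0.12 and 0.13. Gjb6 measured 33.7, 41.3 and 35.7 FPKM in KIKO E2 and 33.6, 33.3 and 33.1 in KIKO oil, 37.8, 36.7 and 52.0 in ERKO E2 and 34.9, 34.6 and 38.8 in ERKO oil, and 33.5, 32.6 and 32.9 in WT E2 and 32.9, 40.3 and 34.8 in WT oil. All ERKO E2 and KIKO E2 libraries lay above the 3 WT E2 libraries, which ran from 32.6 to 33.5 FPKM. The log2 difference from WT E2 was 0.33 ± 0.12 in ERKO E2 (interval 0.07 to 0.58, limma adjusted p = 0.275) and 0.15 ± 0.12 in KIKO E2 (limma adjusted p = 0.772). Leaving out ERKO E2 3 brought that of ERKO E2 to 0.17 ± 0.09 (limma adjusted p = 0.261). The deposited bounds of Gjb6 lay 4.80% to 7.04% from the value, wider than the SD of 0.416 FPKM of the WT E2 libraries around their mean of 33.0 FPKM.

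Aldoc, which encodes the aldolase of brain glycolysis, S100b, a calcium-binding protein, and Aldh1l1, an enzyme of folate metabolism, lie on chromosomes 11, 10 and 6. Aldoc measured 595, 528 and 715 FPKM in KIKO E2 and 630.3, 550.5 and 586 in KIKO oil, 587, 524 and 906 in ERKO E2 and 537, 545 and 589 in ERKO oil, and 794, 737 and 654 in WT E2 and 679, 714 and 666 in WT oil. S100b measured 107, 87.4 and 123 FPKM in KIKO E2 and 106, 102 and 105 in KIKO oil, 92.1, 92.5 and 161 in ERKO E2 and 99.7, 94.7 and 96.7 in ERKO oil, and 125, 109 and 119 in WT E2 and 122, 120.0 and 111 in WT oil. Aldh1l1 measured 18.8, 16.9 and 21.3 FPKM in KIKO E2 and 17.1, 16.1 and 19.8 in KIKO oil, 18.3, 15.9 and 25.3 in ERKO E2 and 16.6, 17.2 and 18.5 in ERKO oil, and 22.8, 22.4 and 18.2 in WT E2 and 21.7, 19.0 and 19.5 in WT oil. Under oil, the 3 genes were lower in every ERKO library than in every WT library, and Aldoc and S100b were so in KIKO as well. The log2 changes in ERKO oil against WT oil were −0.30 ± 0.17 for Aldoc, −0.27 ± 0.17 for S100b and −0.19 ± 0.14 for Aldh1l1 (limma adjusted p = 0.317, 0.360 and 0.449).

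These values of Aldoc, S100b and Aldh1l1 depend on ERKO E2 3, which widens the estimated spread. Without it, Aldoc and S100b passed in ERKO oil against WT oil with the same log2 changes (limma adjusted p = 0.0453 and 0.0474). The number of members past the threshold was then 3 of 9, and 22.5% of all genes passed. In ERKO against WT averaged over both treatments it was 4 of 9, Gfap, Aldh1l1, S100b and Aldoc, where 29.6% of all genes passed. Aldoc also passed in ERKO E2 against WT E2 (log2 difference −0.39, limma adjusted p = 0.0454), 1 of 9 where 8.7% of all genes passed. In KIKO against WT averaged over both it was 2 of 9, Gfap and Aldoc, at a background of 12.3%. With all 18 libraries, 0 members passed over both treatments, at backgrounds of 3.95% in ERKO and 1.56% in KIKO, and Gfap differed from WT by −0.41 ± 0.14 in ERKO and −0.47 ± 0.14 in KIKO (limma adjusted p = 0.128 and 0.121).

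Counting separation of the groups instead of calls gave a similar picture. In ERKO oil against WT oil, 4 of 9 members did not overlap, all lower, where 39.3% of all genes did not overlap. In KIKO oil against WT oil, Gfap, S100b and Aldoc did not overlap, 3 of 9 at a background of 21.9%. KIKO oil against ERKO oil separated Gfap, S100b and Gjb6, 3 of 9 at a background of 28.1%. After E2, Gjb6 was the single separated member in KIKO against WT and in ERKO against WT, at backgrounds of 21.9% and 11%. For E2 against oil, 1 of 9 was separated in each genotype, Gfap in WT, Gjb6 in KIKO and Gfap in ERKO, at backgrounds of 15.8%, 7.41% and 12.3%. These shares lie near the background. KIKO E2 against ERKO E2 separated none of the 9, at a background of 5.5%.

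Across the 18 libraries the 9 genes did not move as 1 group. Slc1a2 and Slc1a3 went together (Pearson r = 0.96, Spearman rho = 0.95 on log2(FPKM + 1)), as did S100b and Aldoc (0.92 and 0.91) and Aldh1l1 and Aldoc (0.91 and 0.87). Without ERKO E2 3 these r were 0.95, 0.87 and 0.87. After the group means were removed they were 0.95, 0.90 and 0.88, and without the 2 libraries farthest from the median of the gene named first 0.92, 0.86 and 0.83. Gfap ran with Aqp4 at r = 0.46, or 0.79 without ERKO E2 3, and against Slc1a3 at r = −0.64, or −0.66 without it. With the group means removed these r were 0.25 and −0.60, and without the 2 libraries farthest from the median of Gfap 0.19 and −0.72. Of the 36 pairs, 21 had a positive r, and the median was 0.154. Without ERKO E2 3 it was 0.0653, with 22 positive. Genes read in the same library share its depth and RNA quality, so these r describe the libraries and carry no p.

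The genes whose pattern was most like the mean of the 9, among 10483 candidates of at least 5 FPKM, were Gatsl3 (r = 0.884), Acadl (0.857), Hsd17b4 (0.850), Pccb (0.838) and Gtf2b (0.815). Over the 17 libraries other than ERKO E2 3 their r was 0.879, 0.847, 0.832, 0.812 and 0.783 in the same order. Acadl and Hsd17b4 encode enzymes of fatty acid oxidation and Pccb a subunit of propionyl-CoA carboxylase. For Gfap alone they were Aebp1 (0.818), Ecm1 (0.807), which encodes an extracellular matrix protein, and Psen2 (0.805). Ecm1 averaged 5.62 FPKM in KIKO E2, 5.75 in KIKO oil, 7.75 in ERKO E2 and 5.83 in ERKO oil, against 5.54 in WT E2 and 13.2 in WT oil.

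The difference between ERKO E2 3 and the other ERKO E2 libraries followed transcript length, in the astrocyte genes as in all genes. Across 10401 genes, the median log2 difference between ERKO E2 3 and the mean of ERKO E2 1 and 2 was 0.83 in the shortest of 5 equal length classes, 0.30, −0.03 and −0.28 in the classes between, and −0.68 in the longest. S100b, with a longest transcript of 1484 bases, differed by 0.80, Aldoc by 0.71 and Gfap, of 2648 bases, by 0.53. Aqp4, of 5054 bases, differed by −0.47, Slc1a3 by −0.47 and Slc1a2, of 11595 bases, by −0.49. The order of the members by length was not exact: Aldh1l1, of 4175 bases, differed by 0.54, above the median of its class. Marker sums of ERKO E2 3 differed as well. Ependymal markers summed to 538 FPKM, against 135 to 238 FPKM in the other libraries, and S100b is known from these cells. Microglia markers summed to 226 FPKM, against 90.0 to 182 FPKM, while tanycyte markers were lowest in ERKO E2 3, at 214 FPKM. These sums were not corrected for transcript length. In them, the length trend of ERKO E2 3 and tissue content cannot be told apart, and the part of each was not tested.

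**Figure D4:**
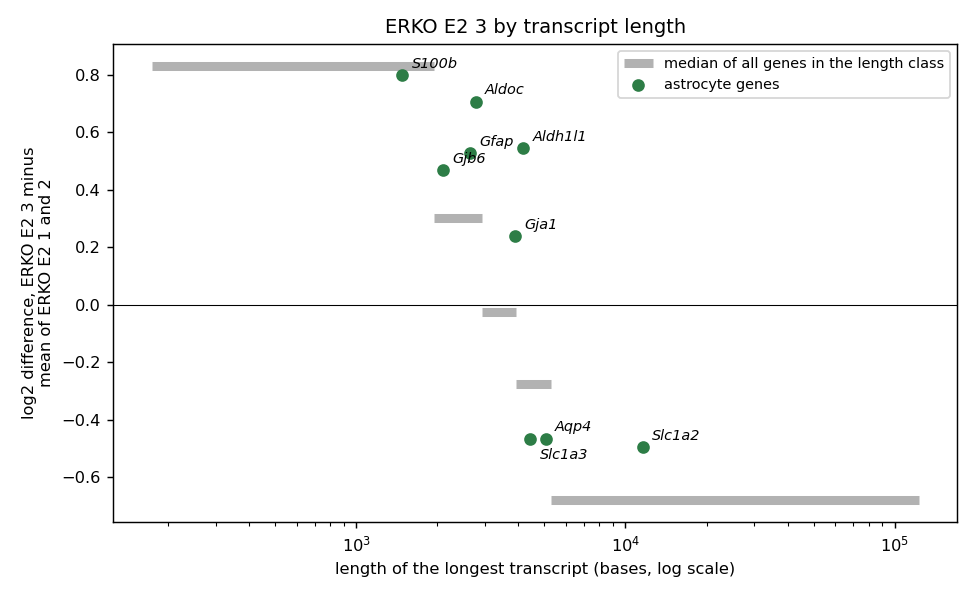
Log2 difference between ERKO E2 3 and the mean of ERKO E2 1 and 2 (y axis) against the length of the longest transcript in bases (x axis, log scale), with grey bars for the median of all genes in each of 5 length classes and points for the 9 astrocyte genes. S100b, the shortest, stands at 0.80 and Slc1a2, the longest, at −0.49.

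Further astrocyte genes were read from 7 lists, 86 genes in all, of which 83 were tested. The lists were written with earlier results of these data known, a fall of Timp1 among them, so their counts are no independent evidence. For ERKO oil against WT oil, 3 of 83 fell and 0 rose, against 0.683% and 0.751% of all genes. Id3 and Hes5, transcriptional regulators of glial fate downstream of BMP and Notch signalling, were 2 of the 13 fate genes, and Timp1, a metalloproteinase inhibitor made by reactive astrocytes among other cells, was 1 of 14 reactive genes. Id3 averaged 24.8 ± 3.73 FPKM in ERKO oil and 47.7 ± 13.7 FPKM in WT oil (log2 change −0.88 ± 0.19, limma adjusted p = 0.0367). Hes5 averaged 10.9 ± 1.97 FPKM in ERKO oil and 22.5 ± 5.12 FPKM in WT oil (−0.97 ± 0.23, limma adjusted p = 0.0473). The calls of Id3 and Hes5 passed in 15 and 13 of 28 alternatives. Averaged over both treatments, Id3 was lower in ERKO than in WT by −0.62 ± 0.13 (limma adjusted p = 0.0193). That call passed in 25 of 28 alternatives, in a comparison where 3.95% of all genes passed. When ERKO E2 3 was left out, 16 of 83 fell and 5 rose in ERKO oil against WT oil, when 22.5% of all genes passed.

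The reactive list, genes that astrocytes raise after injury, had Timp1 as its strongest member. Timp1 was placed there with its fall in these libraries known, so its calls are no independent evidence. Timp1 averaged 1.86 ± 1.12 FPKM in KIKO E2, 2.74 ± 0.57 in KIKO oil, 4.55 ± 1.57 in ERKO E2 and 1.95 ± 0.39 in ERKO oil, against 2.23 ± 0.51 in WT E2 and 13.1 ± 2.89 in WT oil (SD, n = 3 each). It fell after E2 in WT (log2 change −2.12 ± 0.27, limma adjusted p = 0.000616) and lay lower in ERKO than in WT under oil (−2.24 ± 0.27, limma adjusted p = 0.00702), each in 27 of 27 alternatives. In KIKO oil against WT oil it was −1.90 ± 0.27 (limma adjusted p = 0.0273), which passed in 13 of 27. S1pr3, a receptor for sphingosine-1-phosphate, was lower in both mutants averaged over the treatments, by −0.51 ± 0.12 in KIKO and −0.48 ± 0.12 in ERKO (limma adjusted p = 0.0413 and 0.0327). These calls passed in 14 and 18 of 28 alternatives, and with Timp1 made 2 of 14 in each comparison, where 1.56% and 3.95% of all genes passed. Under oil, no other reactive gene passed with all 18 libraries: Vim, another intermediate filament, averaged 81.8 ± 9.22 FPKM in ERKO oil and 114 ± 5.73 FPKM in WT oil, and Serpina3n 64.6 ± 8.96 FPKM in ERKO oil and 88.0 ± 34.4 FPKM in WT oil. The median log2 change of the 14 tested reactive genes was −0.31 in ERKO oil against WT oil, −0.35 in KIKO oil against WT oil and −0.27 for E2 against oil in WT, where the median of all genes was 0.02, 0.01 and 0.01. Such a shift was not particular to this list. In the same order, the median was −0.40, −0.36 and −0.32 for 8 oligodendrocyte markers, and −0.01, 0.02 and −0.01 for 10 general neuron markers. All of these comparisons share the WT oil group. When ERKO E2 3 was left out, 5 of the 14 passed as lower in ERKO oil against WT oil, 3 in KIKO oil against WT oil and 4 in each mutant over both treatments. The shares of all genes called were then 22.5% in ERKO oil, 1.81% in KIKO oil, 29.6% in ERKO over both and 12.3% in KIKO over both.

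**Figure D5:**
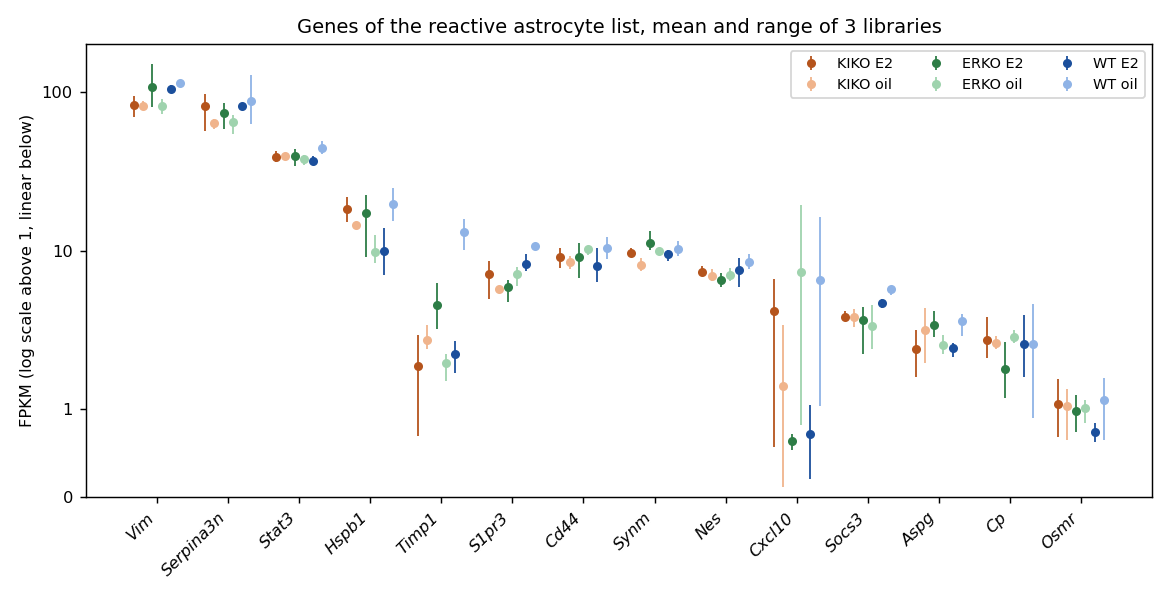
FPKM (y axis, log scale above 1 and linear below) of the 14 tested genes of the reactive astrocyte list, with the mean (point) and the lowest to highest of 3 libraries (line) in each of the 6 groups. Timp1 stands at 13.1 FPKM in WT oil, against 1.86 to 4.55 FPKM in the other 5 groups, and most other genes overlap between groups.

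The genes of transmitter handling, potassium and water balance, coupling and metabolism, synapse and matrix factors and receptors gave at most 1 call per list and comparison with all 18 libraries. Slc38a3, a transporter that releases glutamine from astrocytes, was lower in both mutants than in WT after E2, at 33.8 ± 3.68 FPKM in KIKO E2 and 31.6 ± 2.83 FPKM in ERKO E2, against 46.9 ± 3.76 FPKM in WT E2. Its log2 change against WT E2 was −0.46 ± 0.10 in KIKO and −0.55 ± 0.10 in ERKO (limma adjusted p = 0.0374 and 0.00855), and the calls passed in 14 and 26 of 28 alternatives. It was 1 of 10 handling genes to pass in these comparisons, where the shares of all genes were 0.947% and 1.3%. Under oil it averaged 33.6 FPKM in KIKO and 32.1 FPKM in ERKO, against 38.5 FPKM in WT. Averaged over both treatments, Slc38a3 passed as lower too, by −0.33 ± 0.07 in KIKO and −0.40 ± 0.07 in ERKO (limma adjusted p = 0.0315 and 0.00596). Those calls passed in 18 and 28 of 28 alternatives, where 1.56% and 3.95% of all genes passed. Glul, which makes that glutamine, averaged 403 ± 26.6 FPKM in KIKO E2 and 339 ± 54.7 in ERKO E2, against 399 ± 40.2 in WT E2. Averaged over both treatments, Ncan, a proteoglycan of the extracellular matrix, and Acsbg1, an acyl-CoA synthetase, were lower in ERKO than in WT, by −0.45 ± 0.10 and −0.33 ± 0.08 (limma adjusted p = 0.0253 and 0.0386). These calls passed in 21 and 12 of 28 alternatives, and 3.95% of all genes passed. Without ERKO E2 3 the log2 differences were −0.37 for Ncan and −0.34 for Acsbg1. With all 18 libraries, none of the 10 genes of potassium and water balance and none of the 10 receptors passed in any of the 14 comparisons.

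With ERKO E2 3 left out, these lists held more calls, as all genes did. In ERKO oil against WT oil, 5 of 15 genes of coupling and metabolism were lower and none higher, at a background of 22.5%. In ERKO against WT over both treatments 8 of 15 were lower, at 29.6%, where the fit of all 18 libraries gave 1. Of the genes of potassium and water balance, 1 was then higher and 1 lower in ERKO oil against WT oil, and 2 were lower in ERKO over both treatments. Of the receptors, 1 was higher in ERKO oil against WT oil, 1 in ERKO E2 against WT E2, 1 in KIKO over both treatments and 2 in ERKO over both treatments, none of them lower.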

How the data were processed

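Total RNA of the arcuate nucleus was sequenced in 18 libraries, 3 per group, on an Illumina instrument per the labels' protocols. The authors deposited 1 gene table per library in FPKM, with lower and upper confidence bounds in FPKM. TopHat2 2.0, Cuffdiff and the build mm10 are named in the submitters' processing notes, with no role given, and the annotation is not given in the sources used here. The listed gene positions did not lie on that build, so chromosomes alone are given. FPKM tables give no read totals, so the depth is unknown and precision is read from the replicates and the deposited bounds.

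Entries sharing a symbol were summed. Genes averaging 0.5 FPKM or more, without Mir, Snor and Rnu genes, were tested with limma 3.58.1 (R 4.3.3) on log2(FPKM + 1), 6 group means in 1 fit with 12 residual degrees of freedom, moderated variances with a mean trend, robust, two-sided, Benjamini-Hochberg over 14777 genes and a threshold of 0.05. Fold changes are on the log2(FPKM + 1) scale, which understates those of low genes. The fit was tested on simulated data. The 28 alternatives changed the pseudocount, filter, scaling, variance model, libraries fitted, library weights, a replicate block or transcript length, or left out 1 library. A changed filter or variance model, or leaving out a library outside the groups compared, alters the test but not the log2 change. The length correction (lowess span 0.3) was chosen after seeing the data. Transcript lengths and promoters came from the reference tables. Tables and figures used Python 3.11.15, numpy 2.4.6, pandas 2.3.3 and matplotlib 3.10.9.

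All 9 genes were named, with the members of the 7 astrocyte lists past the threshold, at most 4 per list and comparison by smallest p. Vim, Serpina3n, Glul and the called precursor markers were named outside this rule, after their values were seen. The members and lists were chosen with earlier results of these data known.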

Additional observations from a re-analysis of the deposited data

Results flagged for a closer look

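The E2 response of Gfap was flagged because every E2 library lay below every oil library in WT and every E2 library lay above every oil library in ERKO. The difference of the log2 changes, ERKO minus WT, was 1.30 ± 0.29, and it did not pass (limma adjusted p = 0.0961).

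The E2 response of Timp1, a gene of the reactive list, was flagged because it differed between ERKO and WT by 3.00 ± 0.38 on the log2 scale (limma adjusted p = 0.00129). Timp1 averaged 4.55 FPKM in ERKO E2 against 1.95 FPKM in ERKO oil, and 2.23 FPKM in WT E2 against 13.1 FPKM in WT oil. The difference passed in 27 of 27 alternatives. Without ERKO E2 3 it was 2.79 (limma adjusted p = 0.00132). A fall of Timp1 in these libraries was known when the list was written, so the value is no independent evidence.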

How the results depend on the processing

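The count of the 9 astrocyte genes past the threshold was recomputed under each alternative. With library weights it was 1 for E2 against oil in WT (1.41% of all genes), 1 for KIKO oil against WT oil (2.35%), 3 for ERKO oil against WT oil (19.8%), 2 for ERKO E2 against WT E2 (8.81%), 1 for the ERKO minus WT response (0.494%), and, averaged over both treatments, 2 for KIKO (14.6%) and 5 for ERKO against WT (29.9%). With the transcript length correction it was 1 for E2 against oil in WT (1.64%), 2 for ERKO oil against WT oil (4.4%), 1 for the ERKO minus WT response (0.507%) and 1 for ERKO against WT over both treatments (7.41%). With the fit held to the groups compared, it was 3 for ERKO oil against WT oil (11.2%). The cause was not tested.

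The replicate block took ERKO oil against WT oil to 0 genes (0.433% of all genes). Libraries with the same number showed no general tendency to deviate together. Over 45 such pairs the correlation of deviations ran from −0.393 to 0.526, with a median of −0.0597. Over 90 pairs with different numbers it ran from −0.515 to 0.453, with a median of 0.0454. The labels do not say what the numbers mean, and a batch shared by some of the libraries was not tested.

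Leaving out each library in turn gave 0 to 1 gene for E2 against oil in WT, 0 to 3 for ERKO oil against WT oil, 0 to 1 for ERKO E2 against WT E2, 0 to 1 for the ERKO minus WT response, 0 to 2 for KIKO and 0 to 4 for ERKO against WT over both treatments. The highest count came without ERKO E2 3 in each but the response, where it came without KIKO E2 1, and the 0 for ERKO oil against WT oil came without ERKO oil 1, 2 or 3 or WT oil 1 or 2. KIKO oil against WT oil kept its count of 0 in 27 of 28, the exception being library weights, and the remaining 7 comparisons had 0 in all 28. The files hold no read totals, so what depth limits could not be computed.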
